A study of Mus musculus with 6 samples.

Results

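The genes described here are 37 type I interferon-stimulated genes, taken by name from a table of 57180 genes measured by RNA sequencing in the inguinal white adipose tissue of mice. All 37 names were found in the table once each, and all 37 averaged 1 TPM or more across the 6 libraries, the filter that 15446 genes passed in all. The comparison has 3 libraries from wild-type male mice that ate a high-fat diet supplemented with 0.5% hesperidin (HEP). The other 3 libraries are from wild-type male mice on the high-fat diet alone (HFD), feeding went on for 12 weeks, and all 6 carry the same batch label. Hesperidin, a plant flavonoid found in citrus fruit, was thus the difference between the diets. Inguinal white adipose tissue is the subcutaneous fat depot of the groin, in which lymph nodes are embedded, and the labels do not say whether a node was removed. The sources used here give neither age nor strain. They do not say if the libraries come from different animals, and p-values thus measure the spread between libraries, which may be technical. Values are TPM, the share of transcripts per unit length scaled to 1000000 per library. TPM keeps no read depth, so the depth is unknown and no counting interval is given.

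Type I interferons are secreted when a cell senses foreign or misplaced nucleic acid. They bind the receptor of IFNAR1 and IFNAR2 chains, whose kinases JAK1 and TYK2 phosphorylate STAT proteins, STAT2 among them. STAT2 joins IRF9 in a complex that binds the interferon-stimulated response element (ISRE) in front of the induced genes. The products tag proteins, sense RNA or lead to its cutting, make a chain-terminating nucleotide or block membrane passage. Several of them feed back on the pathway. In fat, adipocytes, stromal cells, macrophages and lymphocytes can all express these genes, so a whole-tissue level adds up cell types.

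Matches to the ISRE were looked for near the starts of these genes. Stretches with a match before the start are shown for some genes of the tagging, IFIT, OAS and transcription factor groups. The core GAAANNGAAA was searched on both strands of windows from 250 bases before to 50 bases after each RefSeq start (GRCm38.p6). Of the 37 genes, 27 were in the window table, and 14 of them held a match (51.9%), against 3.99% of the 27025 genes in that table. In 11 of the 14 a match lay wholly before the start, and in Eif2ak2, Ifih1 and Ifitm3 it lay after it. Ifit2, Ifi44, Oasl1 and Dtx3l, whose HEP and HFD values are given in detail below, had a window without a match, and Usp18 and Dhx58 were not in the table. The capitals mark the matches, and each stretch is written on the strand of its gene.
Isg15 (chr4:156200863-156200908, minus strand): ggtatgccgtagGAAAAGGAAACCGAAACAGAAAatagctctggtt
Ifit1 (chr19:34640773-34640825, plus strand): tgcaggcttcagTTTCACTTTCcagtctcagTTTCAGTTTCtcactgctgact
Ifit3 (chr19:34583361-34583428, plus strand): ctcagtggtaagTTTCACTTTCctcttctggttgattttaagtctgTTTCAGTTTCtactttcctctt
Ifit3b (chr19:34607757-34607824, plus strand): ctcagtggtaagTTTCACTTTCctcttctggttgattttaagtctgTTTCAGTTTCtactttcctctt
Oas1a (chr5:120907526-120907557, minus strand): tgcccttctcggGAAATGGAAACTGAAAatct
Oas1g (chr5:120887614-120887643, minus strand): tgcccttctcggGAAATGGAAACTGAAAat
Stat2 (chr10:128270264-128270297, plus strand): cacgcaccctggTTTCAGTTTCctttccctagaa
Isg15 had 3 overlapping matches in tandem, and Oas1a and Oas1g each had an overlapping pair directly before the start. Oas3, also of the OAS family, had 1 match, with its first base at -75 from the start. Its stretch and those of Bst2, Ddx60 and Rsad2 are not printed. In Ifit1, Ifit3, Ifit3b and Stat2 the core reads TTTCNNTTTC, its form on the other strand. The Ifit3 and Ifit3b stretches were identical over all 68 bases, and those of Oas1a and Oas1g over the 30 bases compared. The gamma-activated site, TTCNNNGAA, an element of interferon gamma responses, was found in 5 of the 27 genes (18.5%), against 9.55% of all genes in the table, and it shared bases with an ISRE match in Bst2 and Ifitm3. A match is a description of letters and was not tested as a binding site.

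**Figure D1:**
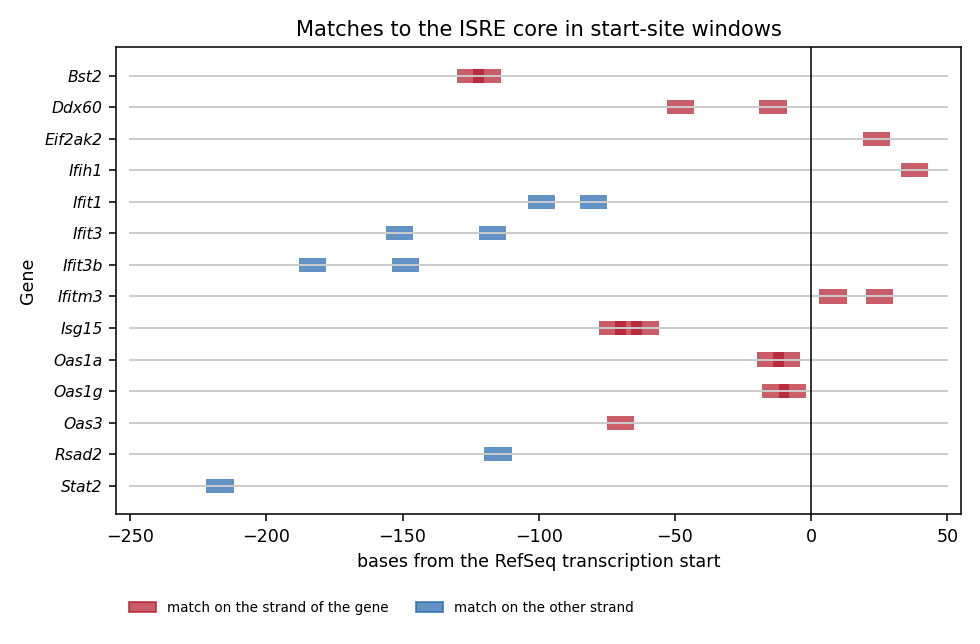
Position of each GAAANNGAAA match in bases from the RefSeq start (0, vertical line) for the 14 genes that had one, with red for a match on the strand of the gene and blue for one on the other strand. The matches of Ifit1, Ifit3 and Ifit3b come in spaced pairs, while those of Isg15, Oas1a, Oas1g and Bst2 overlap.

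The libraries differed in their content of lymphocyte transcripts, and its part in the values below was not tested. Cd79a, a signalling chain of the B cell receptor, had 299, 1.16 and 339 TPM in HEP replicates 1 to 3, against 1.30, 1.64 and 159 TPM in HFD replicates 1 to 3. The summed level of 14 B and plasma cell markers was 1507, 51.4 and 1613 TPM in HEP and 53.0, 52.5 and 785 TPM in HFD, and that of 12 T cell markers was 799, 10.3 and 858 TPM in HEP and 8.41, 15.0 and 592 TPM in HFD. Cd3e, a chain of the T cell receptor complex, had 78.5, 0.43 and 80.7 TPM in HEP and 0.77, 2.05 and 52.8 TPM in HFD. HEP 1, HEP 3 and HFD 3 were thus rich in lymphocyte transcripts, and HEP 2, HFD 1 and HFD 2 were poor in them. HEP 2 also held 19106 TPM of 14 skeletal muscle markers, against 95.5 to 2217 TPM in the other 5 libraries, and 5088 TPM of 9 liver-type transcripts, against 935 to 3547 TPM. Ckm, the muscle creatine kinase, had 226, 2100.3 and 0.17 TPM in HEP and 4.99, 90.8 and 2.93 TPM in HFD, and Alb, the albumin gene, had 9.20, 1024 and 39.3 TPM in HEP and 664, 27.5 and 48.8 TPM in HFD. Fat itself was present in all 6, with Adipoq, the adiponectin gene, at 2393, 3926 and 2151 TPM in HEP and 3473, 4211 and 2891 TPM in HFD. The 15 adipocyte markers summed to 34966, 55541 and 32844 TPM in HEP and 55194, 57533 and 44809 TPM in HFD, and 8 lymph node stroma markers to 1115, 25.1 and 1177 TPM in HEP and 27.6, 18.6 and 926 TPM in HFD. In whole tissue, more cells of a type and more RNA per cell cannot be told apart.

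No interferon-stimulated gene passed the test for a difference between HEP and HFD. With limma on log2(TPM + 1), adjusted by Benjamini-Hochberg over 15446 genes, 0 of the 37 had an adjusted p under 0.05, against a background of 0% of all genes called. Their adjusted p-values ran from 0.879 to 0.997, 0 of them had an unadjusted p under 0.05 (background 0.68% with HEP higher and 1.13% with HEP lower), and the smallest unadjusted limma p was 0.0502 for Usp18. All 37 intervals of 95% included 0, and 24 of them lay inside a 2-fold change in either direction.

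The direction of the differences was nonetheless uneven. The HEP mean on the log2 scale was higher for 32 genes and lower for 5, which are Ifi27l2a, Ifitm3, Lgals3bp, Rsad2 and Cmpk2. With median-of-ratios scaling it was higher for 29 (54% of all tested genes) and with quantile normalization for 24 (42.3%). Among all tested genes 58.6% had a log2 fold change above 0, and the median was 0.24 for the 37 genes and 0.07 for all tested genes. The mean log2(TPM + 1) over the 37 genes was 4.42, 4.22 and 4.25 in HEP and 4.13, 4.10 and 3.95 in HFD, against 4.003, 3.58 and 3.77 in HEP and 3.55, 3.64 and 3.75 in HFD over all tested genes. The lowest HEP library was thus 0.099 above the highest HFD library, but 0.019 under it with median-of-ratios scaling and 0.137 under it with quantile normalization, so that the library means then overlapped. Relative to all tested genes of the same library the 37 genes were at 0.42, 0.64 and 0.47 in HEP and 0.58, 0.46 and 0.19 in HFD, with HEP 2 highest, HFD 3 lowest and the groups overlapping. The highest of the 6 libraries was a HEP library for 30 of the 37 genes, against 64.3% of all tested genes, and the lowest was an HFD library for 30 genes, against 37.2%. The highest value was in HEP 1 for 16 genes (41.4% of all tested genes), in HEP 2 for 10 (12.3%), in HEP 3 for 4 (10.5%), in HFD 1 for 3 (7.45%), in HFD 2 for 4 (24.2%) and in HFD 3 for 0 (4.06%). The lowest value was in HEP 1 for 1 gene (7.01% of all tested genes), in HEP 2 for 3 (27.6%), in HEP 3 for 3 (28.1%), in HFD 1 for 7 (23.1%), in HFD 2 for 4 (8.67%) and in HFD 3 for 19 (5.48%). Without HFD replicate 3 the median of the 37 genes was 0.11, against 0.08 for all tested genes, and most of the distance between the medians thus went with that 1 library. Without HEP replicate 2 it was 0.23, against 0.12 for all tested genes.

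**Figure D2:**
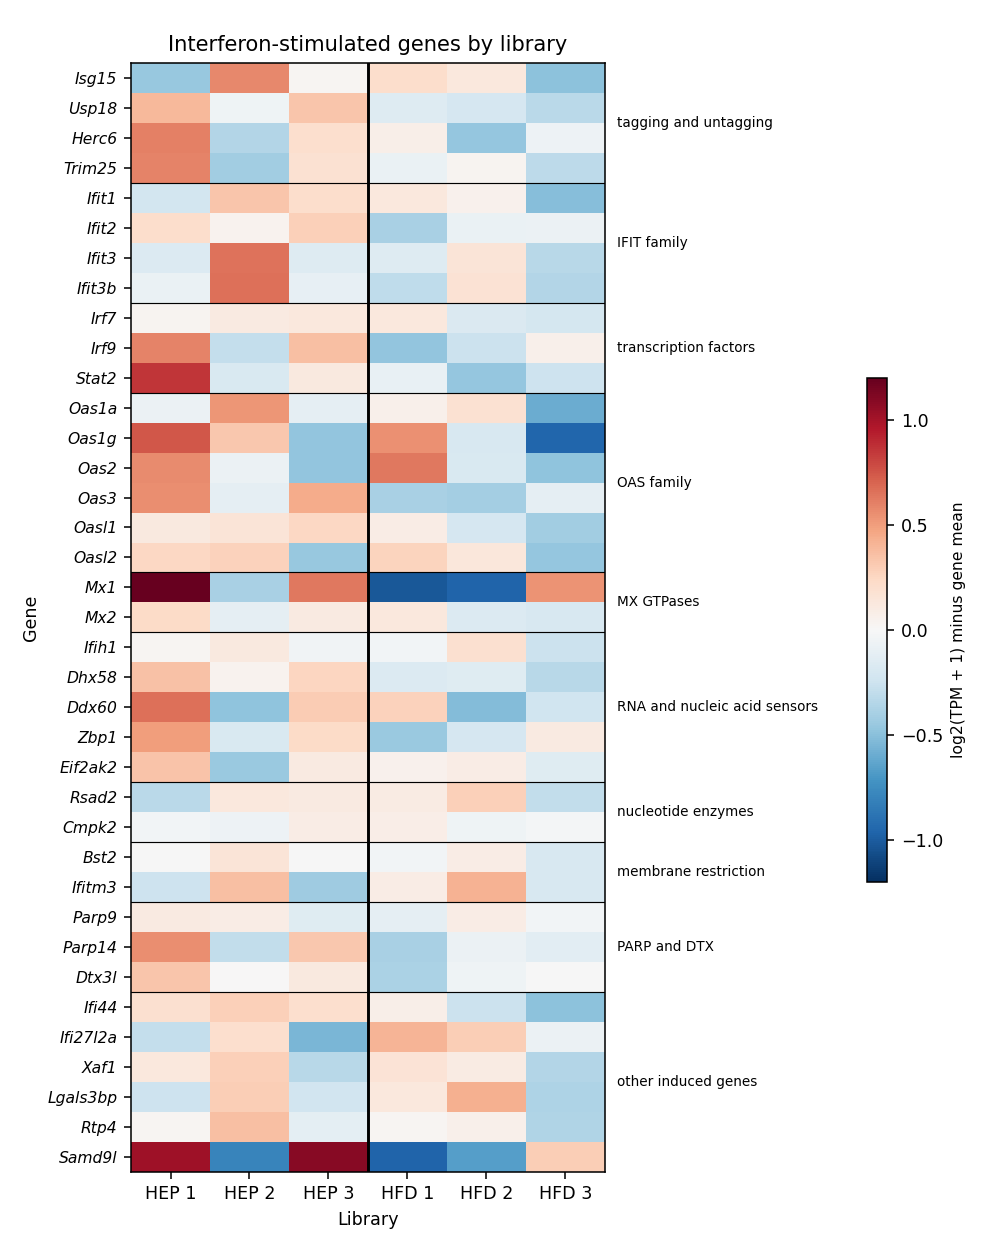
Log2(TPM + 1) of each of the 37 genes (rows, grouped by role) in each library (columns, HEP left of the black line and HFD right of it), after subtracting the mean of the gene over the 6 libraries. HFD 3 is the lowest library for 19 genes, while Ifit3, Ifit3b, Isg15 and Oas1a peak in HEP 2 and Samd9l and Mx1 in HEP 1 and HEP 3.

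In 6 genes every HEP value lay above every HFD value, and in 0 genes below. Among all tested genes 1.88% lay above without overlap and 3.58% below. The 6 were Usp18, Dhx58, Ifit2, Ifi44, Oasl1 and Dtx3l. With quantile normalization the genes without overlap were Usp18, Dtx3l and Oas3, against 1.37% of all tested genes. Without HEP replicate 2 there were 17, against 33.5% of all tested genes.

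Usp18 (ENSMUSG00000030107), the protease that takes ISG15 off its targets and damps signalling at IFNAR2, had 15.1, 10.9 and 14.5 TPM in HEP replicates 1 to 3, against 9.99, 9.69 and 8.82 TPM in HFD replicates 1 to 3. All 3 HEP libraries were above all HFD libraries, with HEP 2 the lowest of the HEP values. The means were 13.5 ± 2.28 TPM in HEP and 9.50 ± 0.608 TPM in HFD (SD, n = 3 each), and the log2 fold change was 0.45 ± 0.19 (SE, unadjusted p = 0.0502, adjusted p = 0.879 in limma). Dhx58 (ENSMUSG00000017830), which encodes LGP2, a regulator of RNA sensing by RIG-I and MDA5, had 8.72, 6.87 and 8.13 TPM in HEP and 5.84, 5.90 and 5.06 TPM in HFD. Its groups also stood apart, with means of 7.91 ± 0.945 TPM in HEP and 5.60 ± 0.469 TPM in HFD and a log2 fold change of 0.43 ± 0.19.

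Ifit2 (ENSMUSG00000045932), an RNA-binding tetratricopeptide protein, had 16.4, 14.4 and 17.2 TPM in HEP and 10.4, 13.2 and 13.3 TPM in HFD. Its log2 fold change was 0.36 ± 0.17, and HEP 2 was again the lowest HEP library. Ifi44 (ENSMUSG00000028037), an induced antiviral protein, had 4.62, 5.03 and 4.66 TPM in HEP and 4.18, 3.14 and 2.51 TPM in HFD. The 3 HEP values of Ifi44 were close together, with an SD of 0.226 TPM, against 0.843 TPM in HFD. Oasl1 (ENSMUSG00000041827), which in mice holds back translation of Irf7, had 2.91, 3.03 and 3.30 TPM in HEP and 2.83, 2.15 and 1.71 TPM in HFD. HFD 1 lay just under the lowest HEP value of Oasl1. Dtx3l (ENSMUSG00000049502), a ubiquitin ligase that works with Parp9, had 26.4, 20.8 and 22.6 TPM in HEP and 15.7, 20.0 and 20.7 TPM in HFD. HEP 2 lay only just above HFD 3 for Dtx3l.

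The genes of protein tagging had higher HEP means in 4 of 4 cases, by 0.095 to 0.45 on the log2 scale, though Isg15 was at -0.041 with quantile normalization. Isg15, the ubiquitin-like tag itself, had 16.7, 35.1 and 23.6 TPM in HEP and 27.1, 25.5 and 16.3 TPM in HFD. It was highest in HEP 2 and lowest in HFD 3 and HEP 1, and its log2 fold change of 0.095 ± 0.32 was smaller than its error. Herc6, the main ligase that attaches ISG15 in mice, had 13.9, 6.70 and 10.2 TPM in HEP and 9.27, 6.12 and 8.38 TPM in HFD. Trim25, a ubiquitin ligase that activates RIG-I, had 32.6, 15.7 and 24.3 TPM in HEP and 20.1, 21.8 and 17.0 TPM in HFD. For both ligases HEP 1 was the highest library and HEP 2 lay within or below the HFD values.

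The IFIT family recognises foreign RNA, and its 4 genes had log2 fold changes between 0.22 and 0.36. Ifit1, which binds RNA with an unmethylated cap, had 6.43, 9.86 and 9.01 TPM in HEP and 8.40, 7.96 and 5.07 TPM in HFD. Ifit3, another member of the family, had 33.6, 59.5 and 33.9 TPM in HEP and 33.8, 42.0 and 29.7 TPM in HFD. Ifit3b, its near copy, had 9.75, 17.0 and 9.61 TPM in HEP and 8.23, 11.8 and 7.95 TPM in HFD. Ifit1, Ifit3 and Ifit3b shared HEP 2 as the highest library and HFD 3 as the lowest. Ifit2 did not, being highest in HEP 3 and lowest in HFD 1. Of the 50-base words in Ifit3 transcripts 51.2% also occur in Ifit3b, in the GENCODE M21 annotation, so the levels of the pair are uncertain. Summed, the pair had 43.4, 76.5 and 43.5 TPM in HEP and 42.0, 53.8 and 37.7 TPM in HFD, which leaves HEP 2 highest and HFD 3 lowest.

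Among the transcription factors, Irf9, the DNA-binding part of the interferon complex, had 35.9, 19.0 and 30.3 TPM in HEP and 16.6, 19.4 and 24.4 TPM in HFD. Stat2, its partner, had 32.4, 15.3 and 18.9 TPM in HEP and 16.3, 12.4 and 14.6 TPM in HFD. Their log2 fold changes were 0.45 ± 0.27 and 0.53 ± 0.29, each with overlapping groups, and HEP 1 was the highest library of both. Irf7, the factor that amplifies interferon production, had 23.6, 24.9 and 25.2 TPM in HEP and 25.3, 20.4 and 19.8 TPM in HFD. Irf7 varied little, since its highest library was 1.28 times its lowest.

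The OAS family makes oligoadenylates that switch on RNase L, while mouse Oasl1 lacks that activity. Oas1a had 7.65, 12.1 and 7.40 TPM in HEP and 8.43, 9.25 and 5.01 TPM in HFD. Oas1g had 3.79, 2.57 and 1.06 TPM in HEP and 3.17, 1.51 and 0.48 TPM in HFD. Of the 50-base words of Oas1a transcripts 57.6% also occur in Oas1g, so these levels are uncertain, and summed the pair had 11.4, 14.7 and 8.46 TPM in HEP and 11.6, 10.8 and 5.49 TPM in HFD. HFD 3 was the lowest library of the pair and of Oas2, Oasl1 and Oasl2. Oas2 had 4.87, 2.77 and 1.85 TPM in HEP and 5.15, 2.5 and 1.84 TPM in HFD. The HEP and HFD means of Oas2 were both 3.16 TPM. Oas3 had 2.22, 1.03 and 1.97 TPM in HEP and 0.67, 0.65 and 1.03 TPM in HFD, all low, with a log2 fold change of 0.60 ± 0.31, and HEP 2 equalled HFD 3. Oasl2 had 20.8, 21.2 and 12.4 TPM in HEP and 21.1, 19.1 and 12.3 TPM in HFD, with a log2 fold change of 0.042 ± 0.29.

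The MX proteins are dynamin-like GTPases that trap viral particles, and many laboratory mouse strains carry broken copies. Both genes have a loss-of-function biotype in the authors' deposited table. Mx1 had 10.7, 2.87 and 6.85 TPM in HEP and 1.52, 1.62 and 6.36 TPM in HFD. Its log2 fold change of 0.95 ± 0.58 was the largest of the 37 genes, but its 3 highest libraries were those rich in lymphocyte transcripts. Mx2 had 3.11, 2.25 and 2.78 TPM in HEP and 2.82, 2.12 and 2.07 TPM in HFD, a log2 fold change of 0.15 ± 0.24.

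Of the 5 nucleic acid sensors, Dhx58 is described above. Ifih1, which encodes the RNA sensor MDA5, had 11.8, 12.6 and 11.2 TPM in HEP and 11.3, 13.3 and 9.53 TPM in HFD. Ddx60, a helicase that assists RNA sensing, had 6.82, 2.56 and 5.13 TPM in HEP and 5.0, 2.46 and 3.21 TPM in HFD. Zbp1, a sensor of Z-form nucleic acid that triggers cell death, had 21.9, 13.3 and 18.0 TPM in HEP and 10.9, 13.1 and 16.5 TPM in HFD. Zbp1 was highest in the 3 lymphocyte-rich libraries. Eif2ak2, which encodes PKR, the kinase that halts translation on double-stranded RNA, had 17.7, 9.83 and 14.9 TPM in HEP and 14.3, 14.7 and 12.3 TPM in HFD. The log2 fold changes were 0.067 ± 0.18 for Ifih1, 0.32 ± 0.38 for Ddx60, 0.36 ± 0.24 for Zbp1 and 0.004 ± 0.24 for Eif2ak2, all with overlapping groups.

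The nucleotide enzymes had HEP means slightly under the HFD means on the log2 scale. Rsad2, which encodes viperin, the maker of a chain-terminating nucleotide, had 7.05, 9.99 and 9.81 TPM in HEP and 9.73, 11.2 and 7.16 TPM in HFD. Cmpk2, a nucleotide kinase encoded next to Rsad2, had 9.11, 8.94 and 10.03 TPM in HEP and 9.95, 9.02 and 9.18 TPM in HFD. Cmpk2 was the steadiest of the 37 genes, with a highest library at 1.12 times the lowest and an interval of -0.39 to 0.38 on the log2 scale.

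Genes of membrane restriction were abundant. Ifitm3, which blocks fusion of entering viruses, had 313, 476 and 277 TPM in HEP and 394, 497 and 326 TPM in HFD. Bst2, the tether that holds budding virus at the surface and a surface marker of plasmacytoid dendritic cells in mice, had 122, 137 and 123 TPM in HEP and 120.5, 131 and 107 TPM in HFD. The 3 lymphocyte-rich libraries were the lowest for Ifitm3, while Bst2 had a spread of 1.27 times over all 6 libraries.

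Parp9 and Parp14 are ADP-ribosyltransferase family members of interferon signalling. Parp9, which forms a complex with Dtx3l, had 48.7, 48.0 and 40.7 TPM in HEP and 41.6, 48.1 and 44.0 TPM in HFD. Parp14 had 28.1, 15.1 and 23.8 TPM in HEP and 14.1, 17.9 and 17.2 TPM in HFD. The log2 fold changes were 0.037 ± 0.14 for Parp9 and 0.39 ± 0.26 for Parp14, against 0.30 ± 0.18 for Dtx3l. Parp9 and Dtx3l overlap over 458 exon bases on opposite strands in GENCODE M21, and the strand of the counting is not given in the sources used here. On the same strand, Herc6 overlaps Gm45193 over 1269 exon bases (13.7% of those of Herc6). Rtp4 overlaps Gm45338 on the same strand over 296 exon bases (13.9% of those of Rtp4).

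The remaining genes held the extremes of level and of spread. Ifi27l2a, an interferon-induced gene of the Ifi27 family, had 5143, 7209 and 4294 TPM in HEP and 8319, 7727 and 5999 TPM in HFD. At a mean of 6448 TPM it ranked as number 14 of all tested genes, and its log2 fold change of -0.42 ± 0.30 was the most negative of the 37. Samd9l, a brake on growth of blood cells, had 64.7, 17.8 and 68.2 TPM in HEP and 15.7, 19.6 and 38.8 TPM in HFD. It was highest in the 3 lymphocyte-rich libraries, and its log2 fold change was 0.88 ± 0.59. Lgals3bp, a secreted glycoprotein that binds galectins, had 178, 259 and 181 TPM in HEP and 231, 284 and 164 TPM in HFD. Xaf1, which antagonises an inhibitor of apoptosis, had 48.3, 54.0 and 35.0 TPM in HEP and 49.7, 47.4 and 34.5 TPM in HFD. Rtp4, a receptor transporter protein induced by interferon, had 30.0, 38.1 and 27.1 TPM in HEP and 29.9, 30.7 and 22.6 TPM in HFD. HFD 3 was the lowest library of all 3 genes, and their log2 fold changes were -0.12 ± 0.26 for Lgals3bp, 0.055 ± 0.23 for Xaf1 and 0.18 ± 0.20 for Rtp4.

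**Figure D3:**
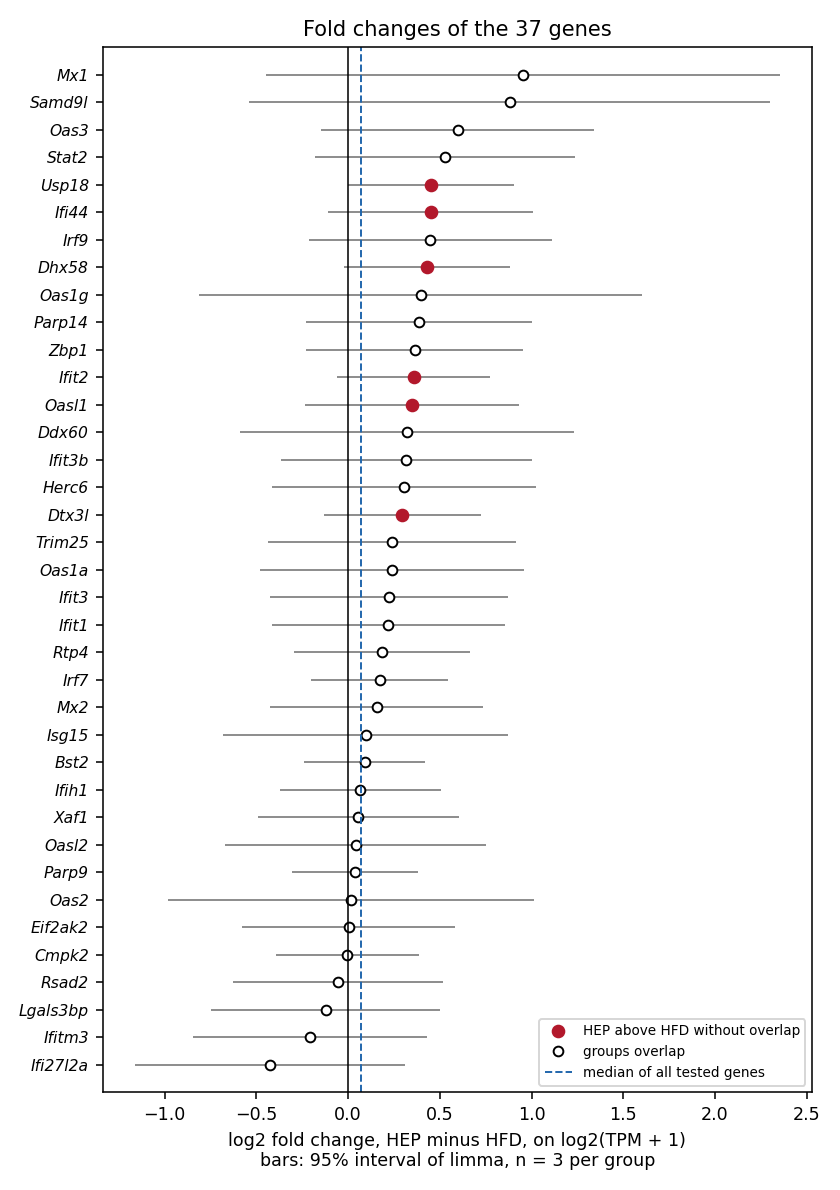
Log2 fold change of HEP over HFD for each gene on the log2(TPM + 1) scale (points) with the 95% interval of limma (bars, n = 3 per group), and the median of all tested genes (dashed line, 0.07). The 6 filled points are the genes without overlap between the groups, and every bar crosses 0.

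The 37 genes did not vary as 1 block across the libraries. Mx1, Irf9, Zbp1 and Samd9l were higher in all 3 lymphocyte-rich libraries than in all 3 others, which was 10.8% of the 37 genes, against 30.5% of all tested genes. Ifitm3, Lgals3bp, Isg15, Oas1a and Ifi27l2a were lower in all 3 of them, 13.5%, against 13.7% of all tested genes. The other 28 genes did neither. The highest library was between 1.12 times (Cmpk2) and 7.90 times (Oas1g) the lowest, with a median of 1.94.

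HEP and HFD were also set side by side within the lymphocyte-poor and within the lymphocyte-rich libraries. The rich libraries were not matched, since HEP 1 and HEP 3 held 1507 and 1613 TPM of B and plasma cell markers and 799 and 858 TPM of T cell markers, against 785 and 592 TPM in HFD 3. In the lymphocyte-poor set HEP 2 was above both HFD 1 and HFD 2 for 18 of the 37 genes (48.6%), against 20.9% of all tested genes, and below both for 4 (10.8%), against 38.7%. In the lymphocyte-rich set HEP 1 and HEP 3 were both above HFD 3 for 32 of 37 (86.5%), against 45.7% of all tested genes, and both below for 2 (5.41%), against 24.2%. The 18 genes of the first set were also above in the second, which was the case for 7.5% of all tested genes. They were Isg15, Usp18, Ifit1, Ifit2, Ifit3, Ifit3b, Oas1a, Oas3, Oasl1, Oasl2, Mx1, Dhx58, Zbp1, Bst2, Dtx3l, Ifi44, Xaf1 and Rtp4. Ifi27l2a was the 1 gene below in both sets, against 7.89% of all tested genes. These sets came from the data, 1 library stands alone on one side of each, and no test was made.

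The median distance of the 37 genes was 0.12 in the lymphocyte-poor set (HEP 2 minus HFD 1 and HFD 2), against -0.08 for all tested genes. It was 0.36 in the rich set (HEP 1 and HEP 3 minus HFD 3), against 0.11 for all tested genes. Ifit3b and Ifit3 had the largest distances in the poor set, 0.72 and 0.65, with Mx1 at 0.59. Oas1g had the largest in the rich set, 1.09, at low TPM. With the lymphocyte content as a covariate, 34 of the 37 genes had a log2 fold change above 0, against 49.1% of all tested genes, with a median of 0.21, against -0.004 for all tested genes. In that fit 5 genes, all with HEP higher, had an unadjusted limma p under 0.05, 13.5% of the 37, against 2.41% of all tested genes. Oas1a was at 0.51, Ifit3 at 0.46, Ifit3b at 0.53, Ifi44 at 0.55 and Rtp4 at 0.35, and every adjusted p was 1.00. All 5 were highest in HEP 2 and lowest in HFD 3, and Ifit3 and Ifit3b are near copies. The fit without HEP replicate 2 had no covariate. There Oas1a was at 0.031, Ifit3 at -0.045, Ifit3b at 0.067, Rtp4 at 0.049 and Ifi44 at 0.42. HFD 1 also held liver-type transcripts, with Alb at 664 TPM, against 1024 TPM in HEP 2 and 27.5 TPM in HFD 2. The part of HEP 2's muscle and liver transcripts and of HFD 1's liver transcripts in these distances was not tested.

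**Figure D4:**
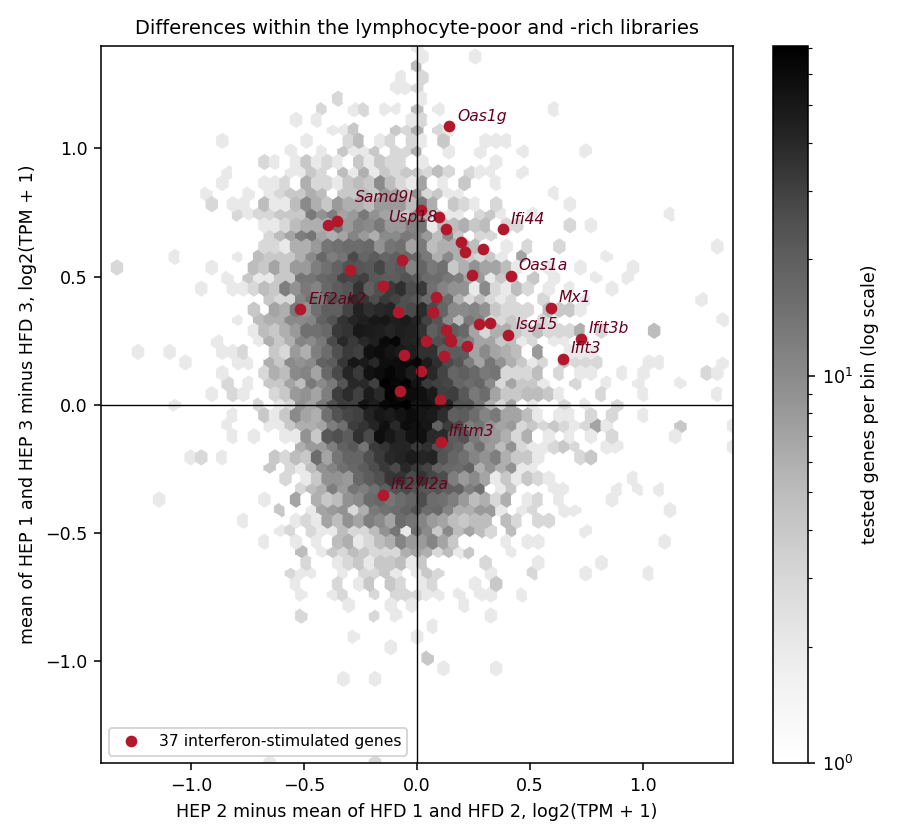
Difference of HEP 2 from the mean of HFD 1 and HFD 2 (x axis) and of the mean of HEP 1 and HEP 3 from HFD 3 (y axis), both on log2(TPM + 1), for the 37 genes (red) and all tested genes (grey, binned), with 777 of the tested genes outside the axes. The red points gather right of and above the centre of the grey cloud, with medians of 0.12 and 0.36, against -0.08 and 0.11.

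Upstream of these genes, the type I interferon ligands were at or near 0. Of the 18 type I ligand genes 16 were listed at 0 in all 6 libraries, among them Ifnb1, the interferon beta gene. Their summed level was 0.07, 0.27 and 0.32 TPM in HEP and 0.06, 0.05 and 0.33 TPM in HFD. Of 3 other interferon ligand genes 2 were at 0 in all libraries. The 3 summed to 1.75, 0 and 0.47 TPM in HEP and 0.41, 0.12 and 0.55 TPM in HFD. The receptor and kinase genes were present. Ifnar1 had 38.8, 16.1 and 32.1 TPM in HEP and 18.6, 25.0 and 26.6 TPM in HFD. Ifnar2 had 95.1, 119 and 89.4 TPM in HEP and 116, 134 and 114 TPM in HFD. Of the 9 tested genes of the receptor and JAK-STAT list, 7 had a higher HEP mean, 2 a lower one, and 0 passed the test in either direction. Among all tested genes 58.6% had a higher HEP mean. The median log2 fold change of the list was 0.34, against 0.07 for all tested genes. In all 3 lymphocyte-rich libraries 5 of the genes were higher, against 30.5% of all tested genes. Ifngr2, a chain of the interferon gamma receptor, had 28.1, 23.1 and 22.6 TPM in HEP and 16.0, 18.3 and 23.9 TPM in HFD.

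Jak1, a kinase of the receptor, had 116, 49.3 and 119.9 TPM in HEP and 44.5, 64.2 and 83.4 TPM in HFD. Tyk2, the other receptor kinase, had 17.2, 6.08 and 13.6 TPM in HEP and 7.28, 7.01 and 10.6 TPM in HFD. In both genes HEP 1, HEP 3 and HFD 3 were the highest libraries, the same that were rich in lymphocyte transcripts. On the side of nucleic acid sensing 14 of 17 tested genes had a higher HEP mean, against 58.6% of all tested genes, and 0 passed. The median was 0.31, against 0.07 for all tested genes. In all 3 lymphocyte-rich libraries 11 were higher, against 30.5% of all tested genes. Rigi, the sensor of short RNA ends, had 33.4, 15.9 and 29.1 TPM in HEP and 20.9, 16.8 and 20.6 TPM in HFD, and Irf3, the factor that starts interferon production, had 80.2, 39.5 and 48.8 TPM in HEP and 49.7, 33.5 and 47.8 TPM in HFD. Sting1, the adaptor of DNA sensing, had 78.0, 19.7 and 77.9 TPM in HEP and 12.3, 18.1 and 51.4 TPM in HFD, and Tlr7, a receptor for single-stranded RNA, had 8.43, 1.74 and 5.89 TPM in HEP and 1.4, 3.45 and 3.31 TPM in HFD. Both overlapped between the groups and had the smallest p-values of the list, Sting1 being highest in the 3 lymphocyte-rich libraries and Tlr7 in HEP 1 and HEP 3, with log2 fold changes of 1.09 ± 0.71 for Sting1 and 0.65 ± 0.52 for Tlr7.

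Of 13 tested genes that restrain the pathway, 12 had a higher HEP mean, against 58.6% of all tested genes, and 0 passed. The median was 0.39, against 0.07 for all tested genes. In all 3 lymphocyte-rich libraries 9 were higher, against 30.5% of all tested genes. HEP lay above HFD without overlap for 1 of the 13, against 1.88% of all tested genes. Rnaseh2a, the catalytic subunit of an enzyme that removes RNA from DNA hybrids, had 31.6, 36.1 and 31.0 TPM in HEP and 26.7, 23.2 and 24.5 TPM in HFD, without overlap and with a log2 fold change of 0.39 ± 0.14 (unadjusted p = 0.0303, adjusted p = 0.879 in limma). Trex1, the exonuclease that clears cytosolic DNA, had 12.3, 10.6 and 14.3 TPM in HEP and 8.01, 7.87 and 12.1 TPM in HFD. Of 77 other interferon-induced genes tested, 68 had a higher HEP mean (58.6% of all tested genes), 9 a lower one and 0 passed. The median was 0.44, against 0.07 for all tested genes. In that list 51 genes were higher in all 3 lymphocyte-rich libraries, against 30.5% of all tested genes. HEP lay above HFD without overlap for 2 of the 77 (1.88% of all tested genes) and below for 1 (3.58%). Ly6e, a membrane protein induced by interferon, had 727, 504 and 615 TPM in HEP and 384, 420.3 and 470.2 TPM in HFD, and Tdrd7, an interferon-induced inhibitor of autophagy, had 34.5, 34.0 and 32.0 TPM in HEP and 42.3, 53.2 and 37.1 TPM in HFD, without overlap in opposite directions.

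The interferon-induced GTPases answer mainly to interferon gamma. Of 19 tested genes 18 had a higher HEP mean, against 58.6% of all tested genes, and 0 passed the test. Their median was 0.61, against 0.07 for all tested genes. In all 3 lymphocyte-rich libraries 11 were higher, against 30.5% of all tested genes. HEP lay above HFD without overlap for 3 of the 19, against 1.88% of all tested genes, and below for 0, against 3.58%. Iigp1 had 46.6, 41.4 and 39.5 TPM in HEP and 25.9, 25.6 and 24.4 TPM in HFD. Its log2 fold change was 0.72 ± 0.13 (unadjusted p = 0.00143, adjusted p = 0.879 in limma). Igtp had 40.2, 29.2 and 38.3 TPM in HEP and 16.1, 20.4 and 28.2 TPM in HFD. Both were without overlap, and both were picked for the smallest p-values of the list.

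Markers of cells that carry interferon-stimulated genes differed between libraries too. The summed level of 13 plasmacytoid dendritic cell markers was 422, 148 and 453 TPM in HEP and 68.7, 97.7 and 285 TPM in HFD. Siglech, the defining marker of those cells, had 21.4, 1.08 and 21.1 TPM in HEP and 0.88, 1.87 and 11.2 TPM in HFD, and 0 of the 13 were at 0 in all libraries. In HEP 2 most of that sum was Cox6a2, singled out after its values were seen, at 84.5 TPM, which skeletal muscle also expresses. The summed level of 8 conventional dendritic cell markers was 141, 27.6 and 129 TPM in HEP and 26.3, 42.6 and 96.4 TPM in HFD. The summed level of 15 macrophage markers was 595, 413 and 575 TPM in HEP and 366, 691 and 530.5 TPM in HFD, highest in HFD 2. Of the 15, 7 had a higher and 8 a lower HEP mean, and the smallest p-values were those of Mrc1 and Cd163, receptors of tissue macrophages, at -0.40 ± 0.22 and -0.45 ± 0.30 on the log2 scale. Adgre1, the marker F4/80 of macrophages, had 17.0, 14.8 and 14.6 TPM in HEP and 12.7, 35.2 and 8.26 TPM in HFD. Siglec1, a macrophage receptor that interferon also induces, had 8.67, 2.12 and 8.90 TPM in HEP and 3.33, 3.63 and 4.95 TPM in HFD. Adgre1 was thus highest in HFD 2 and Siglec1 in HEP 1 and HEP 3. Their part in the levels of the 37 genes was not tested.

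In the annotation of the authors' deposited table, 25 of the 37 genes (67.6%) carried the term defense response to virus, against 0.868% of all tested genes. The term double-stranded RNA binding was attached to 10 of the 37 (27.0%), against 0.453% of all tested genes. By position, 6 of the genes are on chromosome 5 (the OAS and OASL genes), 6 on chromosome 16 and 4 on chromosome 19 (the IFIT genes), so that neighbours and near copies are not independent members.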

How the data were processed

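The deposited table held TPM per gene and sample, computed by the authors, and their mean TPM per group. Per the labels' protocols, the sequencing libraries came from TRIzol-extracted total RNA and the TruSeq kit. The authors' tools, per the submitters' processing notes, were DESeq2, StringTie, RSEM, HISAT2 and fastp, with no version or role given. The genome build is not given in the sources used here. Column totals were 999999.71 to 1000000.7. A change of abundant transcripts in a library shifts its other TPM values.

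Samples were grouped by title. The 15446 genes averaging 1 TPM or more were compared on log2(TPM + 1) as HEP minus HFD. The test was limma 3.58.1 in R 4.3.3, trend on, two-sided, with Benjamini-Hochberg adjustment at 0.05. The fold change understates changes of low genes. The fit was tested on simulated data. All 37 genes are named, with up to 2 genes of smallest p per other interferon list, pathway steps, of which 1 is not reported here, and defining markers of the cell types. The genes and lists were chosen with earlier results of these data known, so lists have counts and medians and no test. The ISRE core and the gamma-activated site were searched as the letters given above. The windows came from RefSeq (GRCm38.p6), and shared words of 50 bases and exon overlaps from GENCODE M21. Alternatives were pseudocounts, filters, scalings, a robust prior, the replicate block, a lymphoid covariate (mean log2 of the B and T cell markers) and leaving out each library.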

Additional observations from a re-analysis of the deposited data

How the results depend on the processing

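No alternative gave a member an adjusted p under 0.05 in limma. Of 547 recomputed member values 509 kept their direction and 38 turned, in 13 genes, while 24 genes, 23 of them higher in HEP, kept their direction throughout. The number of genes called over the whole table was 0, and 0 to 1 without each library in turn. The 1 call came without HEP replicate 2, where 9 members, all with HEP higher, had an unadjusted p under 0.05 in limma (17.5% of all genes) and the smallest member adjusted p was 0.207. The members' median was 0.11 with quantile normalization and 0.11 to 0.30 without each library, lowest without HFD replicate 3. Quantile normalization moved the median of all genes to -0.06, against 0.07, so that the members' distance from it was 0.17 in both. The number of members above 0 was 24 of 37 with quantile normalization (42.3% of all genes) and 29 of 37 with median-of-ratios scaling (54.0%). The genes without overlap numbered 5 with median-of-ratios scaling (2.55% of all genes), 3 with quantile normalization (1.37%) and 6 to 17 without each library, 17 without HEP replicate 2 (33.5%). Those above in both sets of libraries numbered 19 with median-of-ratios scaling (9.89% of all genes) and 13 with quantile normalization (6.16%). The lowest HEP minus the highest HFD library mean over the members was -0.019 with median-of-ratios scaling and -0.137 with quantile normalization, against 0.099. These counts and distances were added after seeing the data.

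With median-of-ratios scaling Parp9 turned to -0.006, Eif2ak2 to -0.039 and Oas2 to -0.029. With quantile normalization the values were -0.052 for Parp9, -0.061 for Mx2, -0.14 for Eif2ak2, -0.096 for Ifih1, -0.094 for Oasl2, -0.20 for Oas2, -0.041 for Isg15 and -0.035 for Xaf1. With the lymphoid covariate Rsad2 was at 0.087, Eif2ak2 at -0.10, Ifitm3 at 0.023 and Lgals3bp at 0.11. Without each library in turn the ranges were -0.05 to 0.035 for Cmpk2, -0.22 to 0.091 for Rsad2, -0.01 to 0.12 for Parp9, -0.17 to 0.23 for Eif2ak2, -0.18 to 0.28 for Oasl2, -0.27 to 0.34 for Oas2, -0.17 to 0.34 for Isg15, -0.10 to 0.23 for Xaf1, -0.045 to 0.36 for Ifit3, -0.34 to 0.059 for Lgals3bp and -0.045 to 0.18 for Ifih1. The cause of these turns was not tested.

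With the replicate block 0 genes and 0 members were called and the median was 0.24, as without it. The sources used here do not say whether equal numbers pair the samples. Same-numbered deviations correlated at -0.36, 0.37 and 0.65, and 3 of 6 samples correlated best with their own number. These correlations cannot decide it, since lymphocyte content also differed between the libraries of each group. Depth is unknown, which limits what can be said of genes near 1 TPM such as Oas3 and Oas1g.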
